A study of Mus musculus with 9 samples.

Results

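Lysosomal cathepsins are the proteases that break down proteins inside the acidic lysosome. The 9 genes described here (Ctsa, Ctsb, Ctsc, Ctsd, Ctsh, Ctsk, Ctsl, Ctss and Ctsz) were chosen by name, with no threshold on their values, from the 48526 genes of the deposited table. The cells were BV-2, a mouse microglial line made immortal in culture, and their poly(A) RNA was sequenced in 9 libraries. High primed cells (HP, replicates 4, 5 and 6) and ultra-low primed cells (ULP, replicates 4, 5 and 6) received LPS, a cell wall component of Gram-negative bacteria, on 2 occasions, and unprimed cells (UP, replicates 4, 5 and 6) received it once. The last dose was 100 ng/ml in all 3 groups, so that no library comes from cells without LPS. By the titles and descriptions of the samples, the first dose was 100 ng/ml in HP and 1 fg/ml in ULP cells, whereas a separate dose field gives these 2 doses the other way round; group names here follow the titles. All libraries come from 1 cell line. No source used here states whether the 3 libraries of a group stem from separate cultures, and p-values therefore reflect only how far these libraries scatter, which may be technical.

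Cathepsins are made as inactive precursors, carried to the lysosome largely by mannose 6-phosphate receptors, and activated there by cleavage at low pH. They divide into cysteine proteases (Ctsb, Ctsc, Ctsh, Ctsk, Ctsl, Ctss and Ctsz), an aspartic protease (Ctsd) and a serine carboxypeptidase (Ctsa). In microglia and other phagocytes they degrade engulfed material and process antigens, and cystatins and some serpins hold their activity in check. The transcription factor TFEB and its relatives switch on many lysosomal genes through an E-box with the core CACGTG.

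Windows of 250 bases before and 50 bases after the annotated start were at hand for 7 of the 9 genes (RefSeq, GRCm38.p6), with 2 starts for Ctsa. The extended E-box GTCACGTG, searched on both strands, stood in the window of Ctsd and in that of the second start of Ctsa. The window of the first start of Ctsa held none. Of all 32851 windows, 2.25% held the extended E-box, a share per window, whereas Ctsa had 2 windows. Its core CACGTG, which it contains, was also found in the window of Ctsl and in 7.15% of all windows. The stretches below are shown because Ctsd, Ctsa and Ctsz were lower in every HP than in every UP library, whereas Ctsl and Ctss were not. Ctsb, which was also lower in every HP library, had no window, and neither had Ctsh. The motif marked differs between the genes, so that the stretches do not compare lower genes with the others. Capitals mark the motif, and each stretch runs 5′ to 3′ on the strand of its gene.
Ctsd distal: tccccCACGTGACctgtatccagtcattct
Ctsd proximal: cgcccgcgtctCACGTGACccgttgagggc
Ctsa: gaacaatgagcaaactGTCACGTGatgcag
Ctsl: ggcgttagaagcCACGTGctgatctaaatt
Ctss: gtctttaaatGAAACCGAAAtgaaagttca
Ctsz: ggctgccgagcgGGGCGGggcgggggcagg

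The distal stretch of Ctsd lies at chr7:142388048-142388077 and the proximal one at chr7:142387907-142387936, both on the minus strand, with the motif beginning 245 and 98 bases before the start. The stretch of Ctsa lies at chr2:164833743-164833772 on the plus strand, before the second annotated start, with the motif 14 bases before it and another copy after it. The annotated gene begins at 164832872, so that this stretch is also within its gene. That of Ctsl lies at chr13:64370739-64370768 on the minus strand, and its E-box begins 236 bases before the start; the start of this window lies inside the annotated gene, so that the stretch is within the gene at its 5′ end. In the window of Ctss, at chr3:95526755-95526784 on the plus strand, the capitals mark a match to the interferon-stimulated response element, the pattern bound by interferon regulatory factors, 21 bases before the start; 3.44% of all windows hold one. In that of Ctsz, at chr2:174439054-174439083 on the minus strand, they mark the GC box GGGCGG, 32 bases before the start, where a next copy overlaps it by 1 base. The GC box was found in 4 of the 7 genes (Ctsc, Ctsd, Ctss and Ctsz) and in 35.7% of all windows, and GAGGAA, a core of sites for PU.1 and other ETS factors, in 3 genes (Ctsc, Ctsk and Ctss) and in 28.3%. These matches describe the letters of the windows and not binding.

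Of the genes, 6 lie in pairs on a chromosome, and Ctsk and Ctss are close neighbours. On GRCm38.p6, Ctsk (ENSMUSG00000028111) spans chromosome 3 from 95499210 to 95509387 and Ctss (ENSMUSG00000038642) the same chromosome from 95526786 to 95556405. On chromosome 2, Ctsa (ENSMUSG00000017760) runs from 164832872 to 164841032 and Ctsz (ENSMUSG00000016256) from 174427494 to 174439039. Chromosome 7 carries Ctsc (ENSMUSG00000030560) from 88278024 to 88315861 and Ctsd (ENSMUSG00000007891) from 142375910 to 142387827. The remaining genes are alone, Ctsh (ENSMUSG00000032359) on chromosome 9 from 90054267 to 90076095, Ctsl (ENSMUSG00000021477) on chromosome 13 from 64361890 to 64370772 and Ctsb (ENSMUSG00000021939) on chromosome 14 from 63122462 to 63145923.

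Each library held between 24189203 and 27802244 counts in genes. The first principal component, computed from log2 CPM (counts scaled to library size), held 79.1% of the variance. On it, HP 6 (−20.4) and ULP 4 (−39.2) lay on the side of the UP libraries (−73.0 to −46.4), and the other 4 primed libraries lay at 44.0 to 75.5. The summed level of 5 RNAs kept in the nucleus differed along the same line, with 109.5 RPM (reads scaled to the size of the library) in HP 6 and 72.1 in ULP 4, against 432 to 1573 in the other primed and 31.6 to 46.8 in the UP libraries. Of the microglial marker list, 9 of 11 gene IDs were over 1 RPKM (RPM per kilobase of gene) in each group, with summed levels of 1458 to 1716 RPKM in HP, 1577 to 1872 in ULP and 1881 to 2132 in UP cells. Cx3cr1, a defining marker of microglia, had at most 2 counts in any library. Only 1 of 7 markers of resting brain microglia, Tmem119, was over 1 RPKM. Markers of neurons, oligodendrocytes and fibroblasts summed to at most 0.421 RPKM in any library, those of astrocytes to at most 1.43 and those of mast cells and granulocytes to at most 1.67. Among 5 osteoclast markers, 3 were over 1 RPKM and Calcr, the calcitonin receptor that defines the osteoclast, was at 0 counts; they summed to 15.2 to 19.0 RPKM in HP, 18.6 to 22.2 in ULP and 21.4 to 22.9 in UP cells. The part of these differences between libraries in the results below was not tested.

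Together the cathepsins made up 1.25 to 1.51% of all counts in HP, 1.36 to 1.55% in ULP and 1.54 to 1.95% in UP libraries. By RPKM, which allows levels of genes of different length to be compared, Ctsk and Ctsz stood at the top, Ctsd, Ctsl, Ctsb and Ctss followed, Ctsa was lower, Ctsc much lower and Ctsh close to nothing. Over the 9 libraries, Ctsk averaged 2041 ± 344 RPKM and Ctsz 1886 ± 310 RPKM (SD, n = 9). Ctsk lay above Ctsz in 7 of 9 libraries, so that these neighbours in the order did not differ beyond their spread. Ctsd averaged 1094 ± 251 RPKM and was below Ctsz in 9 of 9 libraries. Ctsl (839 ± 86.2 RPKM) was below Ctsd in 8 of 9 and above Ctsb (669 ± 106 RPKM) in 8 of 9 libraries, and Ctsb was above Ctss (584 ± 99.8 RPKM) in only 5 of 9. From Ctsk down to Ctss, the ranges of all neighbours in the order overlapped, although Ctsz exceeded Ctsd within every library. Ctsa (178 ± 25.0 RPKM) and Ctsc (24.0 ± 1.30 RPKM) were apart from their neighbours in every library.

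**Figure D1:**
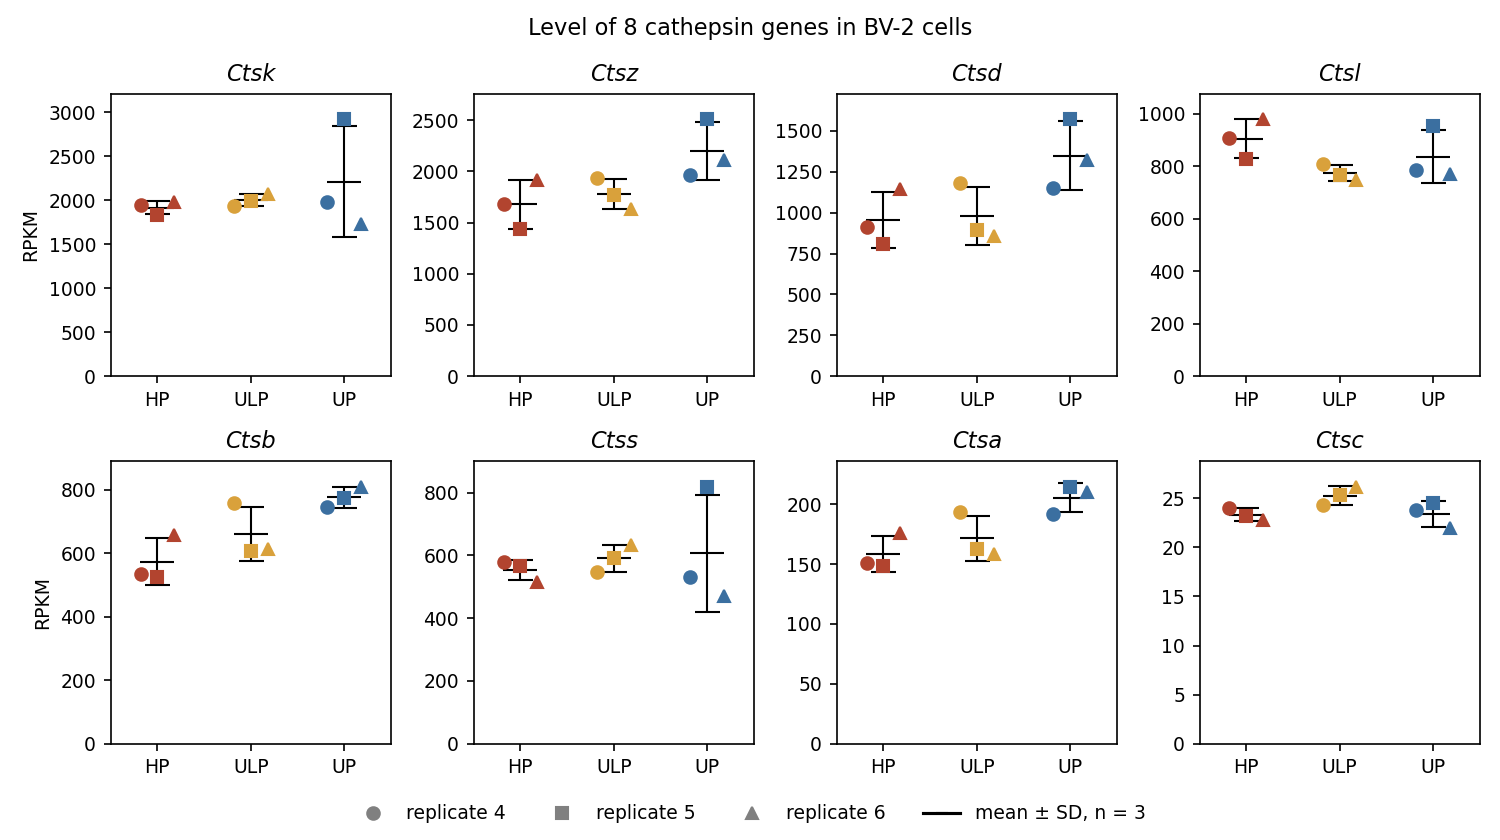
RPKM (y axis, from 0) of 8 cathepsin genes in HP, ULP and UP libraries (x axis); each point is 1 library, its shape gives the replicate number, and bars give mean ± SD of 3 libraries. For Ctsa, Ctsb, Ctsd and Ctsz all HP points lie below all UP points, and UP 5 stands highest for Ctsk and Ctss, at 2918 and 819 RPKM.

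Ctsh, an aminopeptidase, was listed at 0, 0 and 3 counts in HP, 3, 1 and 1 in ULP and 1, 5 and 1 in UP libraries. The sums of 3, 5 and 7 counts have 95% Poisson intervals of 0.619 to 8.77, 1.62 to 11.7 and 2.81 to 14.4, which overlap and cover counting error only. A count of 3, the limit that a count of 0 allows, corresponds to 0.0240 to 0.0276 RPKM for this gene, so that differences in Ctsh were not detectable at this depth. It did not pass the filter on low counts, and the tests below concern the other 8 genes, out of 14702 genes tested.

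Ctsa, Ctsb, Ctsd and Ctsz were lower in every HP than in every UP library, by RPKM and by CPM with TMM library scaling. Their log2 fold changes in HP over UP cells ran from −0.62 to −0.50, and none passed edgeR's quasi-likelihood test at a Benjamini-Hochberg adjusted p under 0.05. By RPKM, 11.4% of all genes tested were lower in every HP than in every UP library. RNA of bulk cultures does not tell fewer cells that express a gene from less RNA per cell.

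Ctsd encodes the main aspartic protease of the lysosome. It had 913, 807 and 1145 RPKM in HP 4, 5 and 6 against 1154, 1572 and 1323 RPKM in UP 4, 5 and 6. The groups did not overlap, but HP 6 and UP 4 all but met. Its log2 fold change was −0.62 (standard error 0.21, 95% confidence interval −1.10 to −0.14, adjusted p = 0.0716 from edgeR).

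Ctsb, a cysteine protease that cleaves within proteins and also trims their carboxyl ends, had 533, 526 and 658 RPKM in HP against 744, 772 and 809 RPKM in UP cells. All HP libraries were lower, and HP 6 was the closest to UP. The log2 fold change was −0.56 (standard error 0.16, interval −0.92 to −0.20, adjusted p = 0.0608 from edgeR).

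Ctsz, a carboxypeptidase of the cysteine class, had 1681, 1440.3 and 1913 RPKM in HP against 1967, 2511 and 2114 RPKM in UP cells, a log2 fold change of −0.51 (standard error 0.17, interval −0.90 to −0.13, adjusted p = 0.0688 from edgeR). Ctsa, the serine carboxypeptidase that also protects β-galactosidase and neuraminidase in a complex, had 151, 149 and 176 RPKM in HP against 191, 215 and 210.2 RPKM in UP cells, a log2 fold change of −0.50 (standard error 0.14, interval −0.82 to −0.17, adjusted p = 0.0610 from edgeR). For both genes the groups were apart, and HP 6 was the highest of the HP libraries.

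Of the other 4 genes in HP against UP cells, all groups overlapped. Ctsk, a strong collagenase best known from osteoclasts, had 1941, 1827 and 1974 RPKM in HP against 1983, 2918 and 1730.4 RPKM in UP cells. Ctss, which cleaves the invariant chain of MHC class II and stays active near neutral pH, had 577, 566 and 516 RPKM against 532, 819 and 469 RPKM. In both, UP 5 was far above the other UP libraries. Their log2 fold changes were −0.34 for Ctsk (adjusted p = 0.217 by edgeR, standard error 0.20) and −0.26 for Ctss (standard error 0.20, adjusted p = 0.342); without UP replicate 5 they were −0.06 and 0.04.

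Ctsl, an endopeptidase with broad specificity, had 907, 829.8 and 979.9 RPKM in HP against 785, 954 and 772 RPKM in UP cells, so that levels overlapped. Its log2 fold change was −0.01 (standard error 0.14, interval −0.33 to 0.31, adjusted p = 0.961 from edgeR). Ctsc, the dipeptidyl peptidase that activates granule serine proteases, had 24.0, 23.2 and 22.8 RPKM in HP against 23.8, 24.5 and 21.9 RPKM in UP cells, with a log2 fold change of −0.13 (standard error 0.10, interval −0.35 to 0.10, adjusted p = 0.342). With GC content and gene length corrected for, an alternative chosen after seeing the data, the log2 fold changes were −0.25 for Ctsl and −0.84 for Ctsc.

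In all, edgeR called 0 of the 8 tested cathepsins between HP and UP cells, against 0.524% of all genes tested. At an unadjusted p under 0.05, 4 were lower (Ctsa, Ctsb, Ctsd and Ctsz), and 16.6% of all genes tested were lower at that level. DESeq2 called these same 4 genes lower, against 7.79% of all genes, and limma on log2 RPKM called 0. The calls turned on 2 libraries. Without HP replicate 6, edgeR called Ctsa, Ctsb, Ctsd and Ctsz lower, with 14.3% of all genes called lower; without ULP replicate 4, which enters the estimate of the spread, it called the same 4, with 8.67% of all genes called lower. The median log2 fold change of the 8 genes was −0.42 (−0.23 without UP replicate 5), and that of all genes tested was 0.01.

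**Figure D2:**
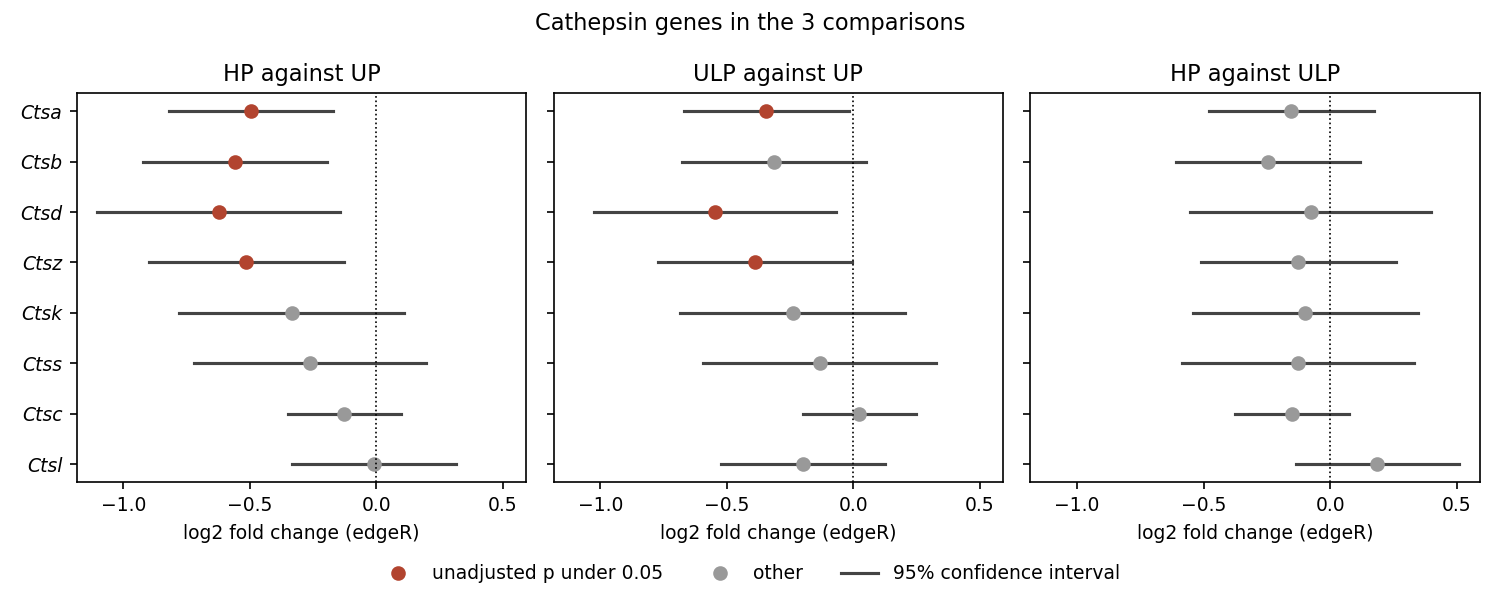
Log2 fold change from edgeR (x axis) of 8 cathepsin genes (rows) in HP against UP, ULP against UP and HP against ULP, with 95% confidence intervals; red points have an unadjusted p under 0.05. In HP against UP the intervals of Ctsa, Ctsb, Ctsd and Ctsz lie below 0, and none of the points passed the test after adjustment.

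In ULP against UP cells the same 4 genes had negative log2 fold changes of −0.55 to −0.31, and only Ctsz was lower in every ULP than in every UP library, while 11.5% of all genes tested were lower in this way. Ctsz had 1935, 1772 and 1638 RPKM in ULP against 1967, 2511 and 2114 RPKM in UP cells, a log2 fold change of −0.39 (standard error 0.17, adjusted p = 0.183 from edgeR). ULP 4 and UP 4 lay next to each other.

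For Ctsd, levels were 1181, 894 and 859.6 RPKM in ULP against 1154, 1572 and 1323 RPKM in UP cells, and only ULP 4 reached into the range of UP. Its log2 fold change was −0.55 (standard error 0.21, adjusted p = 0.172 from edgeR). Ctsa had 193, 163 and 158 RPKM in ULP against 191, 215 and 210.2 RPKM in UP cells (log2 fold change −0.34, standard error 0.14, adjusted p = 0.177), and Ctsb had 759, 607 and 613 RPKM against 744, 772 and 809 RPKM (log2 fold change −0.31, standard error 0.16, adjusted p = 0.217). In both, ULP 4 alone lay within the UP range.

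Ctsk had 1933, 1992 and 2069 RPKM in ULP and Ctss had 546, 592 and 633 RPKM, all within the wide range of UP cells. The log2 fold changes were −0.24 for Ctsk (adjusted p = 0.413 from edgeR) and −0.13 for Ctss (adjusted p = 0.666); without UP replicate 5 they turned to 0.04 and 0.17. Ctsl had 809, 766 and 749 RPKM in ULP cells (log2 fold change −0.20, adjusted p = 0.355), and Ctsc had 24.3, 25.4 and 26.2 RPKM (log2 fold change 0.02, adjusted p = 0.885). Without UP replicate 6 that of Ctsc was −0.03, and with GC content and gene length corrected for it was −0.60.

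By edgeR, 0 of the 8 genes were called between ULP and UP cells, as were 0% of all genes tested. At an unadjusted p under 0.05, 3 were lower (Ctsa, Ctsd and Ctsz), against 9.79% of all genes, DESeq2 called 0 lower, against 0.0884% of all genes, and limma called 0. Without ULP replicate 4, edgeR called Ctsa and Ctsd lower, with 5.73% of all genes called lower. The median log2 fold change of the 8 genes was −0.28 (−0.17 without UP replicate 5), and that of all genes tested was −0.01. Both primed groups were compared with the same 3 UP libraries, so that the 2 comparisons are not independent.

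**Figure D3:**
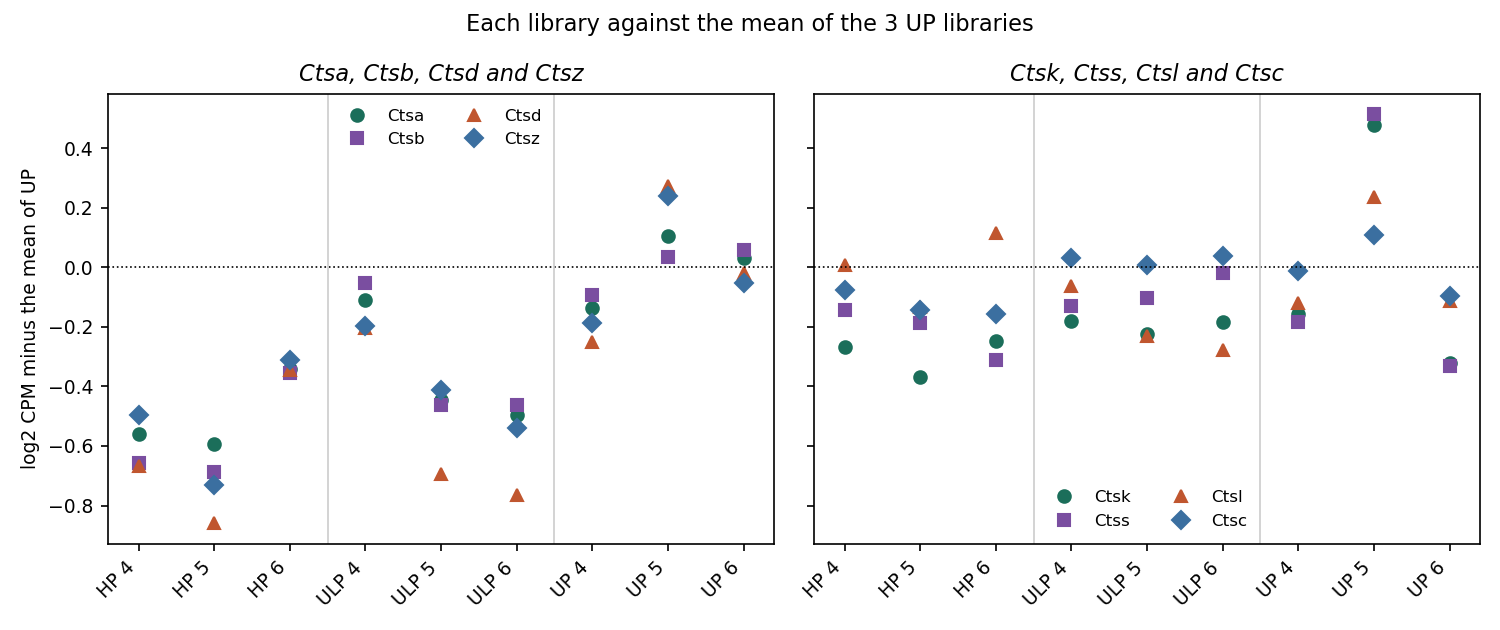
Log2 CPM with TMM scaling minus the mean of the 3 UP libraries (y axis) in each of the 9 libraries (x axis), for Ctsa, Ctsb, Ctsd and Ctsz (left) and for Ctsk, Ctss, Ctsl and Ctsc (right). On the left, HP 6 and ULP 4 lie nearer to the UP libraries than the other primed libraries of their group, and on the right UP 5 stands above all others, with Ctss at 0.51 and Ctsk at 0.48.

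For Ctsa, Ctsb, Ctsd and Ctsz, HP 6 and ULP 4 lay nearest to UP within their groups, whereas for Ctss and Ctsc HP 6 was the lowest of the HP libraries. Relative to the UP mean, Ctsb had −0.66, −0.69 and −0.36 on the log2 scale in HP 4, 5 and 6 and −0.05, −0.46 and −0.46 in ULP 4, 5 and 6. Ctsd had −0.67, −0.86 and −0.35 in HP and −0.20, −0.69 and −0.76 in ULP libraries. The median over the 8 genes was −0.38, −0.48 and −0.31 in HP, −0.12, −0.32 and −0.37 in ULP and −0.15, 0.24 and −0.07 in UP libraries, whereas the median of all genes tested stayed between −0.02 and 0.03 in each library. Thus UP 5 was the highest of all libraries for the cathepsins as a group. With both HP 6 and ULP 4 left out, edgeR called Ctsa, Ctsb, Ctsd and Ctsz lower in both comparisons with UP, where 20.4% of all genes were called lower in HP and 14.6% in ULP cells.

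Some of the genes ran closely together over the 9 libraries. Among Ctsa, Ctsb, Ctsd and Ctsz the Pearson r of log2 CPM ran from 0.91 to 0.98, and that of the neighbours Ctsk and Ctss was 0.94 (n = 9 libraries, which share the differences between libraries given above). For Ctsk and Ctss, UP 5 stood alone at 0.48 and 0.51 above the UP mean on the log2 scale. All other libraries lay between −0.37 and −0.02 for both genes. Their r without UP 5, and r over all pairs of genes, were not computed. Their ratio Ctsk to Ctss stayed between 3.23 and 3.82 in all HP, ULP and UP libraries. Ctsl had its highest r, 0.65, with Ctsd, and Ctsc its highest, 0.79, with Ctss.

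Base composition, taken from the longest annotated transcript of each gene, differed between the genes. These transcripts can differ from the gene length behind the RPKM. For Ctsl they had 6168 against 1971 bases, for Ctss 4454 against 1358 and for Ctsz 3447 against 1441. The GC values, and the correction that uses them, may thus not describe the sequence that was counted. The transcripts of Ctsd (56.5% GC), Ctsa (55.4%) and Ctsz (55.4%) were richer in G and C than the median gene tested (49.4%), Ctsb was near it with 50.2%, and Ctsk (46.1%), Ctss (45.6%), Ctsl (44.3%) and Ctsc (42.4%) were poorer. Under the correction for GC content and length, HP over UP gave log2 fold changes of −0.53 for Ctsb, −0.31 for Ctsa, −0.31 for Ctsd and −0.13 for Ctsz, against −0.38 for Ctsk and −0.34 for Ctss, and none of the 8 genes was called. The signs of all 8 genes in HP cells stayed negative with this correction, and the value of Ctsz moved closest to 0.

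The genes most like each member, among 9284 named genes of at least 5 CPM, are given as a description. For Ctsa they were Tsta3, Psap (prosaposin, the precursor of activators of lipid breakdown) and Cndp2, with r of 0.99 to 1.00, and for Ctsb Ptpn6, Actg1 and Napa (r 1.00 each). For Ctsd they were Rpl13a and the ribosomal pseudogenes Rpl28-ps1 and Rps2-ps13 (r 1.00 each), whose reads cannot be told from those of their parent genes with certainty, and for Ctsz Trmt112, Rpl10a and Cuta (r 0.99 to 1.00). Of the 3 genes closest to Ctsk, 2 were subunits of the proton pump that acidifies the lysosome, Atp6v1d (r 0.98) and Atp6v1h (r 0.98), next to BC031181 (r 0.99). For Ctss they were Ms4a7, Rpl17 and Fabp3 (r 0.98 to 0.99), for Ctsl Ppa1, Nop16 and Ppil3 (r 0.96 to 0.99) and for Ctsc Skap2, Ube2f and the chemokine gene Cxcl2 (r 0.95 to 0.96).

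Ctsl took a larger share of the cathepsin transcripts in every HP library than in any other. Its own level in HP over UP cells had a log2 fold change of −0.01 from edgeR with TMM scaling. By RPKM, on which the shares rest, its level averaged 905 in HP and 837 in UP cells. The log2 fold change from limma on log2(RPKM + 0.1) was 0.117. Of the summed RPKM of the 9 genes, Ctsl took 13.5, 13.4 and 13.3% in HP 4, 5 and 6, against 10.96, 11.3 and 11.1% in ULP and 10.6, 9.75 and 10.4% in UP 4, 5 and 6. The 3 groups did not overlap, and HP 6 and ULP 4 lay with their own groups. The ratio of Ctsl to Ctsb was 1.49 to 1.70 in HP, 1.07 to 1.26 in ULP and 0.954 to 1.23 in UP libraries, and that of Ctsl to Ctsd was 0.856 to 1.03, 0.685 to 0.871 and 0.583 to 0.680 in HP, ULP and UP. Ctsk took 26.7 to 29.6% in HP, 26.2 to 30.7% in ULP and 23.2 to 29.8% in UP libraries, and Ctsz 23.3 to 25.9%, 24.3 to 26.2% and 25.7 to 28.4%. The share of Ctsd, at 13.1 to 15.5% in HP, 12.7 to 16.001% in ULP and 15.6 to 17.8% in UP libraries, was also apart between HP and UP. That of Ctsb was apart between HP (7.92 to 8.907%) and ULP libraries (8.913 to 10.3%), but by very little. These shares were chosen for description after their values were seen and were not tested.

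**Figure D4:**
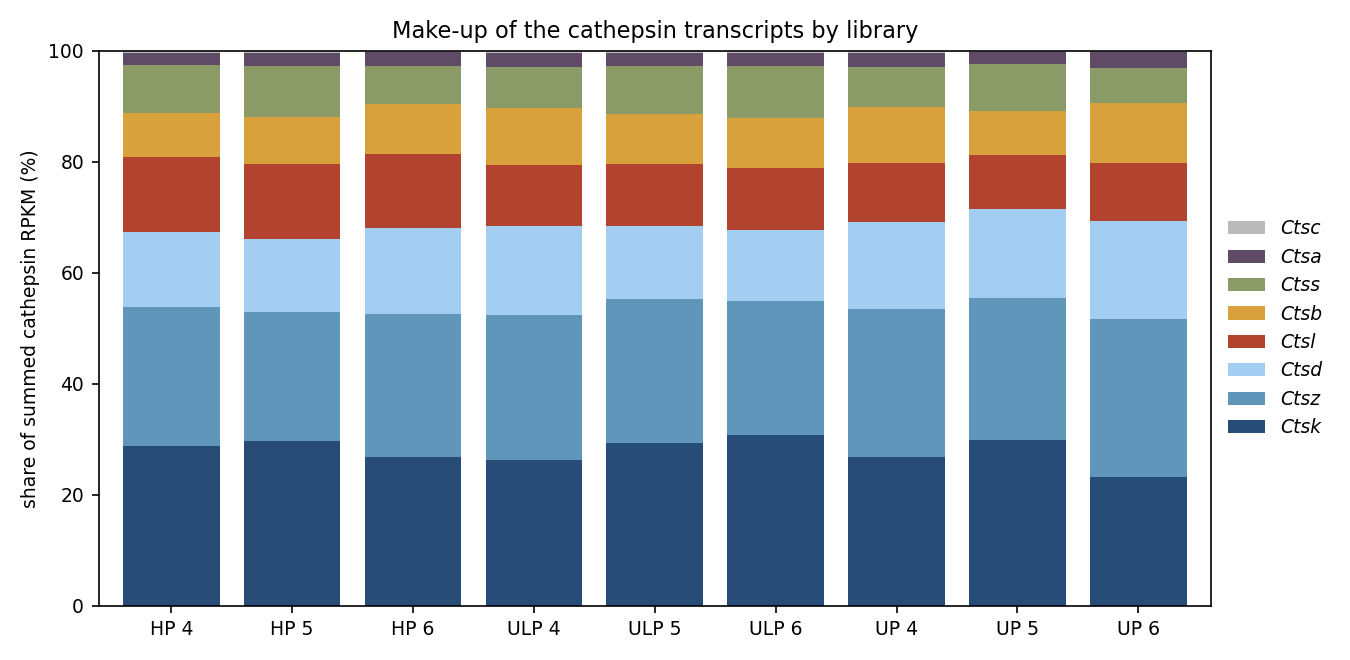
Share of each cathepsin gene in the summed cathepsin RPKM (y axis, %) in the 9 libraries (x axis), with HP left, ULP in the middle and UP right; Ctsh is too low to be seen. The red band of Ctsl is 13.3 to 13.5% in the HP libraries and 9.75 to 10.6% in the UP libraries.

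Between HP and ULP cells no cathepsin passed the test, with log2 fold changes of −0.25 (Ctsb) to 0.19 (Ctsl) and adjusted p-values of 1.00 from edgeR. For Ctsl, 907, 829.8 and 979.9 RPKM in HP stood against 809, 766 and 749 RPKM in ULP cells. Its groups were apart by RPKM, as for 6.09% of all genes tested in this direction, and overlapped with TMM scaling. Its log2 fold change was 0.19 (standard error 0.14, interval −0.14 to 0.51). Ctsk and Ctss overlapped by RPKM. With TMM scaling they were lower in every HP than in every ULP library, and the share of all genes on that scale was not counted. Ctsc was lower in every HP than in every ULP library on both scales, with 24.0, 23.2 and 22.8 RPKM in HP against 24.3, 25.4 and 26.2 RPKM in ULP cells, as were 4.1% of all genes by RPKM. Its log2 fold change was −0.15 (standard error 0.10, interval −0.37 to 0.07). By edgeR 0 of the 8 genes were called, against 0.17% of all genes, 0 had an unadjusted p under 0.05, against 3.94%, DESeq2 called 0, against 0.714%, and limma called 0. The sign of Ctsd, at −0.08, turned to 0.03 without HP replicate 5 and to 0.12 without ULP replicate 4.

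Of the 14 other cathepsin genes, 11 were absent or close to it. Ctsg of granulocytes and 9 cathepsins of the rodent cluster, most of them placental, were at 0 counts in all libraries, and Ctsw had at most 4. Ctsf, a cysteine protease, had 34.5 ± 6.996 RPKM in HP and 34.7 ± 5.24 in ULP against 47.4 ± 5.97 RPKM in UP cells (SD, n = 3 each), with a log2 fold change of −0.58 in HP over UP (adjusted p = 0.0702 from edgeR). Ctso had 2.02 ± 0.314, 2.09 ± 0.551 and 1.22 ± 0.173 RPKM in HP, ULP and UP cells, a log2 fold change of 0.60 in HP over UP (adjusted p = 0.0780). That of Ctso turned to −0.73 with GC content and gene length corrected for. Ctse, the third tested, had 28 to 47 counts in HP, 28 to 40 in ULP and 28 to 39 in UP libraries. Of these 3 genes edgeR called 0. At an unadjusted p under 0.05, 1 was higher (Ctso) and 1 lower (Ctsf) in HP than in UP cells. The genes tested had shares of 24.3% higher and 16.6% lower at this level. DESeq2 called 1 of the 3 lower, while its share over the genes tested was 7.79% lower.

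Among the inhibitors, Serpina3g fell in HP cells. It encodes a serpin inside the cell that blocks cysteine cathepsins. Of all the lists around the cathepsins, it was the only gene that edgeR called. The call was in HP against UP cells, where edgeR called 0.524% of all genes tested. Serpina3g had 15.1, 17.7 and 21.0 RPKM in HP 4, 5 and 6, and 46.0, 27.9 and 42.2 in ULP, against 44.6, 49.1 and 46.3 RPKM in UP cells. All HP libraries were below all others, and the lone low ULP library was ULP 5. The log2 fold change was −1.50 in HP over UP cells (standard error 0.21, adjusted p = 0.0240 by edgeR), −0.35 in ULP over UP cells (adjusted p = 0.266) and −1.15 in HP over ULP cells (adjusted p = 0.0908). DESeq2 called it lower in HP than in ULP cells as well. The call was lost with a replicate block (adjusted p = 0.120), alone or with a correction for gene length or GC content, and without any one of HP 4, HP 5, ULP 6, UP 4, UP 5 and UP 6 (adjusted p of 0.0508 to 0.168), while the log2 fold change stayed between −1.62 and −1.34 in every alternative. Serpina3g belongs to a family of near-identical copies, whose reads the counting may have split.

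The other inhibitors tested, Cst3, Cstb and Cst7, were not called by edgeR. At an unadjusted p under 0.05, edgeR had 3 of the 4 tested inhibitors lower in HP than in UP cells, against 16.6% of all genes. DESeq2 called 2 of the 4 lower, Serpina3g among them, against 7.79% of all genes. By RPKM, Cst3 and Cstb were lower in every HP than in every UP library, as were 11.4% of all genes. Cst3, the secreted cystatin C, had 207 ± 67.0 RPKM in HP and 215 ± 34.2 in ULP against 321 ± 44.5 RPKM in UP cells (log2 fold change −0.75 in HP over UP, adjusted p = 0.0688 from edgeR). Cstb, which acts in the cytosol, had 866 ± 43.2, 907 ± 6.998 and 1091 ± 283 RPKM in HP, ULP and UP cells (log2 fold change −0.46, adjusted p = 0.0931). Both log2 fold changes were thus negative, as were those of all 8 tested cathepsins in HP over UP cells. Of the cysteine cathepsins, only Ctsb and Ctsz were lower in every HP than in every UP library. For Cstb, UP 5 (1417 RPKM) stood far above UP 4 (946 RPKM) and UP 6 (909 RPKM). The stefins Stfa1, Stfa2, Stfa3 and Stfa2l1 were at 0 counts.

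Genes that process and sort the precursors were all detected, and edgeR called 0 of 8 in either comparison with UP. DESeq2 called 1 of the 8 higher and 0 lower in HP cells, against 17% higher and 7.79% lower of all genes. In HP over UP cells 5 had negative and 3 positive log2 fold changes, with 3 lower and 1 higher at an unadjusted p under 0.05, against 16.6% and 24.3% of all genes. Lgmn, the endopeptidase legumain that cleaves several cathepsins, had 361 ± 58.3 RPKM in HP and 359 ± 51.3 in ULP against 447 ± 25.0 RPKM in UP cells (log2 fold change −0.43 in HP over UP, adjusted p = 0.0931 from edgeR). Sort1, the sorting receptor sortilin, was low, at 0.534 ± 0.0883, 0.453 ± 0.0856 and 0.282 ± 0.00379 RPKM in HP, ULP and UP cells (log2 fold change 0.80 in HP over UP, adjusted p = 0.0606). M6pr, a receptor for mannose 6-phosphate, had 88.6 ± 0.771, 94.7 ± 1.47 and 95.9 ± 5.17 RPKM in HP, ULP and UP cells, and Nagpa, which uncovers that tag, was at −0.40 in log2 fold change of HP over UP (adjusted p = 0.0726). Igf2r, the other mannose 6-phosphate receptor, had 17.1 ± 1.49 RPKM in HP and 16.8 ± 1.56 in ULP against 12.3 ± 4.39 RPKM in UP cells, and Gnptab, a subunit of the enzyme that makes the tag, 19.5 ± 1.17 and 18.7 ± 1.28 against 14.1 ± 3.41 RPKM. Both were higher in every primed than in every UP library, as were 30.1% of all genes in HP and 16.2% in ULP libraries; they were chosen for mention after their values were seen.

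The 42 other lysosomal hydrolases and their activators showed the same side, with 32 negative and 10 positive log2 fold changes in HP over UP cells, a median of −0.34 beside 0.01 for all genes tested. None passed edgeR's test (21 lower and 5 higher at an unadjusted p under 0.05), and DESeq2 called 13 lower and 2 higher. Of all genes tested, 16.6% were lower and 24.3% higher at an unadjusted p under 0.05, and DESeq2 called 7.79% lower and 17% higher. In ULP cells the median was −0.26 (−0.15 with GC content and gene length corrected for), and edgeR called 0. At an unadjusted p under 0.05, 11 were lower and 3 higher, against 9.79% lower and 17.3% higher of all genes. DESeq2 called 1 higher and 0 lower in ULP cells. Of all 14702 genes tested, it called 1035 higher and 13 lower. Psap had 1174 ± 162 RPKM in HP and 1263 ± 164 in ULP against 1546.5 ± 83.1 RPKM in UP cells, and Acp5, the tartrate-resistant phosphatase, had 110.3 ± 17.0 and 129.7 ± 14.8 against 161 ± 6.31 RPKM (log2 fold change −0.67 in HP over UP, adjusted p = 0.0606 from edgeR). Gm2a, an activator of ganglioside breakdown, was at −0.54 in log2 fold change (adjusted p = 0.0664). On the other side, Ids, an iduronate sulfatase, had 1.24 ± 0.422 RPKM in HP and 1.18 ± 0.373 in ULP against 0.445 ± 0.0846 RPKM in UP cells (log2 fold change 1.35 in HP over UP, adjusted p = 0.0606), and lysozyme Lyz2 had 619 ± 60.1 and 505 ± 85.0 against 415 ± 86.5 RPKM. Without HP replicate 6, edgeR called 19 of the 42 lower and 3 higher in HP cells, against 14.3% lower and 23.9% higher of all genes.

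Other parts of the lysosome were mixed. The 21 membrane genes had a median log2 fold change of −0.18 and the 17 genes of the V-ATPase, the proton pump, one of −0.22 in HP cells (−0.13 without UP replicate 5 and −0.37 with an offset for gene length), and 0 of either list were called in HP or ULP cells. At an unadjusted p under 0.05, 7 membrane genes were lower and 2 higher and 6 pump genes lower and 2 higher in HP cells, beside the shares of all genes given for the hydrolases. DESeq2 called 5 membrane genes lower and 1 higher and 4 pump genes lower and 1 higher. Within the pump, Atp6v0d1 had 219.9 ± 39.0 RPKM in HP and 249 ± 50.7 in ULP against 328 ± 20.5 RPKM in UP cells (log2 fold change −0.70 in HP over UP, adjusted p = 0.0606 from edgeR), and its paralog Atp6v0d2 had 13.6 ± 4.01 and 9.67 ± 3.10 against 5.93 ± 1.08 RPKM (log2 fold change 1.08, adjusted p = 0.0606). The paralogs thus lay on opposite sides of UP in HP cells, and Atp6v0d1 was the more abundant by far. In the membrane, Lamp1 had 371 ± 39.86, 426 ± 54.5 and 471 ± 42.1 RPKM in HP, ULP and UP cells and Tmem192 one of −0.70 in log2 fold change of HP over UP (adjusted p = 0.0606), whereas Lamp2 had 29.5 ± 5.58, 31.3 ± 6.00 and 20.5 ± 3.15 RPKM and a log2 fold change of 0.40 (adjusted p = 0.136), which turned to −0.78 with GC content and gene length corrected for.

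**Figure D5:**
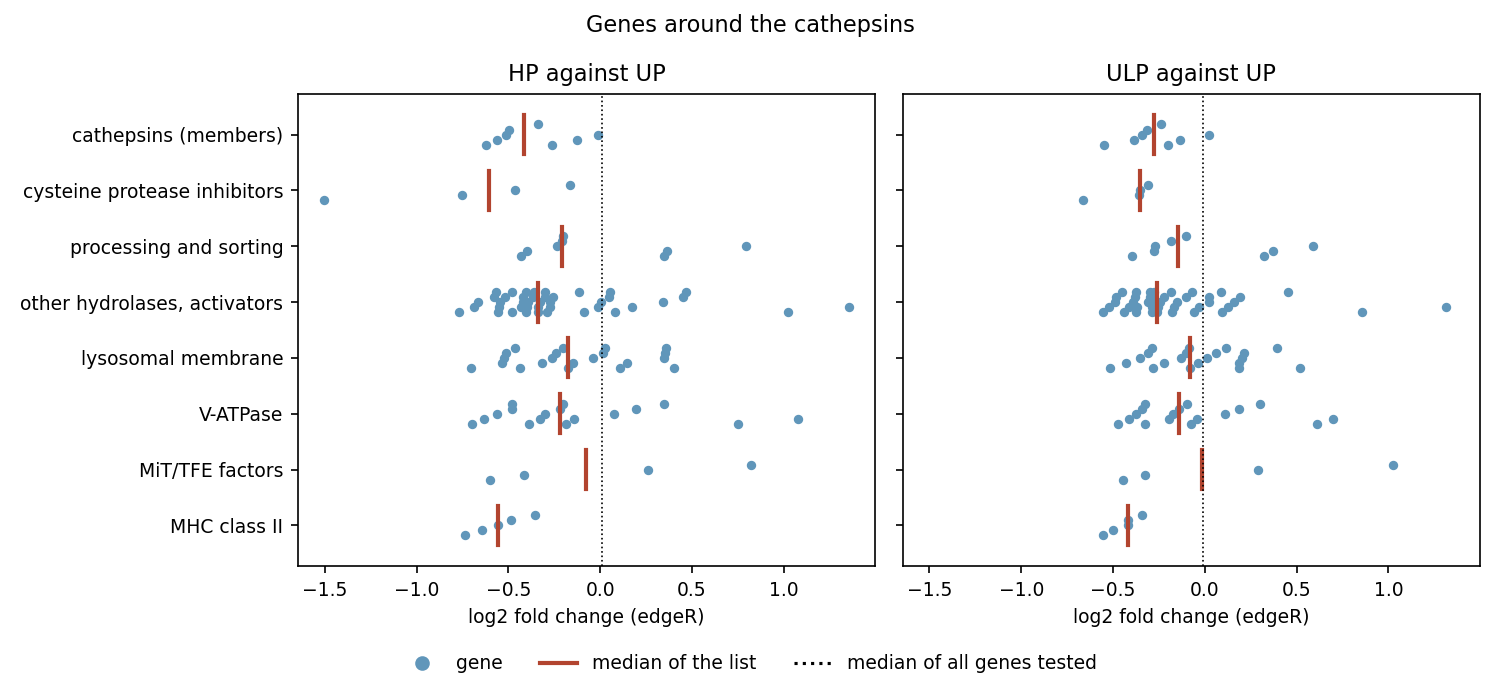
Log2 fold change from edgeR (x axis) of each tested gene (points) in the cathepsins and 7 lists of genes around them (rows), for HP against UP (left) and ULP against UP (right), with the median of the list in red and of all genes tested dotted. The median of the cathepsins is −0.42 in HP and −0.28 in ULP cells, and the leftmost point in HP is Serpina3g.

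Of the 4 factors of the TFEB family, edgeR called 0 between HP and UP cells, where it called 0.524% of the genes tested. At an unadjusted p under 0.05, 2 factors were lower and 1 higher. The genes tested had shares of 16.6% lower and 24.3% higher at this level. DESeq2 called 1 factor lower and 1 higher, while its shares over the genes tested were 7.79% lower and 17% higher. The 4 factors did not share a direction. Tfeb had 3.10 ± 0.676 RPKM in HP and 3.35 ± 0.587 in ULP against 4.32 ± 0.376 RPKM in UP cells (log2 fold change −0.60 in HP over UP, adjusted p = 0.0742 from edgeR). Mitf had 3.05 ± 0.860 and 3.44 ± 1.09 against 1.59 ± 0.438 RPKM (log2 fold change 0.82, adjusted p = 0.0763). Tfec, at 28.4 ± 4.62, 28.4 ± 5.501 and 21.8 ± 2.54 RPKM in HP, ULP and UP cells, and Tfe3, at 11.4 ± 1.69, 11.7 ± 1.35 and 13.9 ± 1.88, were the most abundant.

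Substrates and partners completed the picture. Of 9 genes of MHC class II presentation, 5 were tested and all 5 had negative log2 fold changes in HP and in ULP cells, with 0 called by edgeR; at an unadjusted p under 0.05, 4 were lower in HP and 2 in ULP cells, and DESeq2 called 2 lower in HP cells. The same 3 counts over all genes came to 16.6%, 9.79% and 7.79%. The median of the 5 genes was −0.56 in HP and −0.42 in ULP cells, and −0.21 and −0.11 with GC content and gene length corrected for. Cd74, the invariant chain cut by Ctss, had 404, 354 and 493 RPKM in HP and 529.8, 408 and 442 in ULP against 550.0, 772 and 585 RPKM in UP cells. All primed libraries lay below all UP libraries, as did the HP libraries for 11.4% and the ULP libraries for 11.5% of all genes, with log2 fold changes of −0.74 in HP (adjusted p = 0.0606 by edgeR, standard error 0.20) and −0.55 in ULP cells (standard error 0.20, adjusted p = 0.169). For Ifi30, a lysosomal thiol reductase, it was −0.48 in HP (adjusted p = 0.0997) and −0.50 in ULP cells (adjusted p = 0.172). Of 8 granule proteases that Ctsc activates, none exceeded 1 RPKM in any group, with Prtn3 at 0.508 ± 0.226, 0.345 ± 0.0207 and 0.477 ± 0.0927 RPKM in HP, ULP and UP cells and Elane at no more than 0.216 RPKM on average in any group.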

How the data were processed

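Per the file headers and the labels, the authors deposited, for each library, the read count of every gene, the same value as RPM (reads scaled to the library's total) and as RPKM (RPM per kilobase of gene length). The submitters' processing notes name bcl2fastq 1.8.4, TopHat2 2.1.0, featureCounts 1.5.0 and the build GRCm38; the study's supplement names another mouse build, and no source used here gives the strandedness option of featureCounts. Of 48526 genes, 24933 had no count, and 0 value columns were left unused.

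Counts were tested with edgeR 4.0.16 (R 4.3.3; filterByExpr, TMM scaling, quasi-likelihood test, 1 group term over all 9 libraries), with Benjamini-Hochberg adjustment over all 14702 genes kept and calls at an adjusted p under 0.05. RPKM served for levels and shares; gene length was taken from the ratio of RPM to RPKM. Alternatives were DESeq2 1.42.0, limma 3.58.1 on log2(RPKM + 0.1) and log2(RPKM + 1), RLE scaling, no filter, 6 libraries only, an offset for gene length, a replicate block, and leaving out libraries; an offset for GC content was chosen after seeing the data. Only the edgeR fit, with and without the offset for gene length, was tried on simulated counts. GC content was taken from the longest annotated transcript of each gene. Replicate numbers recur in the groups, but nothing says that they mark a shared culture.

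All 9 cathepsins are named. Of each surrounding list, the genes with the smallest p in either comparison with UP, the most abundant and those called were picked, up to 2 by each criterion. Of these, Hgsnat, Cd68, H2-DMb1, Atp6ap1, Atp6v1c1 and Atp6v1f are not described here. Some other genes were named besides, among them those listed at or near 0, Igf2r and Gnptab. For the genes most alike, the 3 highest Pearson r over 9 libraries were taken, without predicted genes. The members and lists were chosen with earlier results of these data known. Levels rest on 24.2 to 27.8 mio counts per library; the Poisson intervals of Ctsh cover counting error only, whereas the intervals of fold changes rest on the spread between libraries.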

Additional observations from a re-analysis of the deposited data

Results flagged for a closer look

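Ctsc stood out by log2 CPM with TMM scaling. On that scale its HP libraries all lay below the mean of the UP libraries (−0.08, −0.14 and −0.16). Its ULP libraries all lay above it (0.03, 0.01 and 0.04). By RPKM, HP 4 (24.0) lay above the mean of the UP libraries (23.4). This opposite placement was not tested as such; the UP libraries themselves ranged from −0.10 to 0.11. The log2 fold change of HP over ULP cells was −0.15 (standard error 0.10, adjusted p = 1.00 from edgeR), which did not pass the test.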

How the results depend on the processing

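Of 24 fold changes of the cathepsins under 21 alternatives each, 461 values kept their direction and their side of the threshold, 22 newly passed it and 21 changed sign. The cause was not tested. With limma on log2(RPKM + 0.1), the median of all genes moved to 0.13 in HP against UP cells, against which its values are to be read. In HP against UP cells, Ctsl turned to 0.09 with an offset for gene length, alone and with the replicate block (0.0897 and 0.0913), to 0.0146 with only 6 libraries, to 0.117 with limma at either pseudocount and, among the libraries left out, without HP 5 (0.0520) and UP 5. In ULP against UP cells, Ctsc turned to −0.139 with the length offset, −0.134 with that and the block, −0.595 with GC content and length, −0.504 with the block and GC content and −0.0269 without UP replicate 6. Ctss turned to 0.0391, 0.0614 (length, and length with block), 0.00105 and 0.000993 (limma with 0.1 and 1) and 0.168 (without UP replicate 5), and Ctsk to 0.0372 without UP replicate 5. In HP against ULP cells, Ctsd turned to 0.0334 without HP replicate 5 and 0.120 without ULP replicate 4. With GC content and length, and with the block and GC content, Ctso turned to −0.728 and −0.705 in HP and −0.467 and −0.411 in ULP cells, Lamp2 to −0.784 and −0.568 in HP and −0.501 and −0.286 in ULP cells, and Atp6v0d2 to −0.00564 and −0.0699 in ULP cells; Nagpa turned to 0.0331 in ULP cells with GC content and length. Leaving out each library in turn, the log2 fold changes ran in HP against UP from −0.0768 to 0.112 for Ctsl and from −0.424 to 0.0381 for Ctss, in ULP against UP from −0.0269 to 0.0765 for Ctsc, from −0.394 to 0.0372 for Ctsk and from −0.295 to 0.168 for Ctss, and in HP against ULP from −0.236 to 0.120 for Ctsd.

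Counts of called genes moved far more. Between HP and UP cells (77 genes), they were 0 with the replicate block, 7 with block and length, 9 with block and GC content, 213 with GC content and length, 3650 with DESeq2, 2018 with no filter, 1511 with only 6 libraries, 30 with limma and a pseudocount of 1, 7243 with HP 6 and ULP 4 left out and 0 to 5721 with each library left out in turn; called cathepsins were 4 with DESeq2, 4 with both left out and 0 to 4 in turn. Between ULP and UP cells (0 genes), DESeq2 called 1048, 5702 were called with both left out and 0 to 2864 in turn, with 4 cathepsins and 0 to 2. Between HP and ULP cells (25 genes), the block gave 0, the length offset 46, block and length 0, DESeq2 105, no filter 53, only 6 libraries 0, limma with 1 13, both left out 8, GC content and length 90, block and GC content 5 and leaving out in turn 0 to 30. Libraries with the same replicate number had deviations that correlated by −0.72, 0.68 and −0.84 between HP and ULP, by 0.09, 0.11 and 0.51 between HP and UP and by −0.30, 0.11 and −0.52 between ULP and UP (numbers 4, 5 and 6). Not every pair was above 0.1, so that the numbers were not taken to pair the libraries. Ctsh, with 0 to 5 counts per library, is limited by depth.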
